A study of Rattus norvegicus with 16 samples.

Results

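The 10 circadian clock genes Arntl, Clock, Per1, Per2, Per3, Cry1, Cry2, Nr1d1, Nr1d2 and Dbp were followed through RNA-seq libraries of whole blood from 16 saline-treated rats. They were chosen by symbol, taking the entry with the highest total where a symbol had several entries, and each of the 10 symbols had 1 entry among the 18031 genes listed for every library. The animals were male Sprague-Dawley rats without any stated genetic change, 85 to 90 days old, kept on a 12 h light cycle with lights on from 6 am to 6 pm. Each received 4 injections of saline at 1 ml/kg, spaced by 2 h and without food or water during dosing, and blood was drawn by needle from the heart 3 h after the last injection, between 4:30 and 5:30 in the afternoon. All 16 libraries belong to that 1 group, so no treatment and no time of day can be compared, and the question the design allows is whether the clock genes varied together among animals sampled at the same hour.

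In the mammalian clock, the proteins of Arntl (also called Bmal1) and Clock bind E-box sequences as a pair and activate the Per, Cry, Nr1d and Dbp genes. The PER and CRY proteins feed back to block that pair, and the nuclear receptors encoded by Nr1d1 and Nr1d2 repress Arntl through RORE sequences. In tissues with a running clock, Arntl transcripts therefore peak at about the opposite time of day to those of Nr1d1, Dbp and the Per genes. Blood leukocytes carry such clocks, and Per1 is also induced by glucocorticoids.

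The sequences in front of these genes were searched for the letters of such sites. RefSeq start sites of the assembly GRCr8 gave a window of the 250 bases before the start for 9 of the 10 genes, with no window for Cry1 and 2 windows each for Clock and Nr1d1. The windows with a match are shown in lower case, 5′ to 3′ on the strand of the gene, with the matches in capitals. Arntl lies at chr1:176766078-176766327 (plus strand), Per2 at chr9:99496994-99497243, Cry2 at chr3:98860438-98860687, and the windows of Nr1d1 at chr10:84229455-84229704 and chr10:84231813-84232062 (all minus strand).
Arntl: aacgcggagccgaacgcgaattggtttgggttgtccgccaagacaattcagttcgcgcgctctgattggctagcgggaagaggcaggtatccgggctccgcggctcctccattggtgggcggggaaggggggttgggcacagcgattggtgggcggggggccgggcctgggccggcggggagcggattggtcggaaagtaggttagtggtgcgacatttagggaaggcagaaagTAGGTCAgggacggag
Per2: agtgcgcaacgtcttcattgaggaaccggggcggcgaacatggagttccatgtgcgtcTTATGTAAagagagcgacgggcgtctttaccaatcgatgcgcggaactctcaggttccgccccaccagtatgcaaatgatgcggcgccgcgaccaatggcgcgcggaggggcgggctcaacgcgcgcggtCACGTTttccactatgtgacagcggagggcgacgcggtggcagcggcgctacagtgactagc
Cry2: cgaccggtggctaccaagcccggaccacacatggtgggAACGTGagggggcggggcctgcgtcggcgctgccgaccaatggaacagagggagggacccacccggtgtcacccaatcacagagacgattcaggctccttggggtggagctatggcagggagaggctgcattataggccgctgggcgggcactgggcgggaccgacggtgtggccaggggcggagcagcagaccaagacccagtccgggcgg
Nr1d1, window 1: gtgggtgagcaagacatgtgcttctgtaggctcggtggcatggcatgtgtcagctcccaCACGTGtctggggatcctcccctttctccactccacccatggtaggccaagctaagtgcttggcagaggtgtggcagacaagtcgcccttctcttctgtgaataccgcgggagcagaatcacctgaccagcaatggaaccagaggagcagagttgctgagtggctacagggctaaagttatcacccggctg
Nr1d1, window 2: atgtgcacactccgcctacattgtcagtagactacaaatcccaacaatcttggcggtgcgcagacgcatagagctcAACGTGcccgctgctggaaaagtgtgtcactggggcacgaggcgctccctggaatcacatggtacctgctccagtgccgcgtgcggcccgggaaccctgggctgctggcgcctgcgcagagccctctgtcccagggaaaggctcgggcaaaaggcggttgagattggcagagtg
Both strands were searched, and no matches overlapped. The RORE letters TNGGTCA stood in 1 of the 9 genes, Arntl, at 16 to 10 bases before its start, and in 9.47% of the 33469 windows of all genes. The E-box CACGTG stood only in window 1 of Nr1d1, at 191 to 186 bases before the start, and in 5.59% of all windows. The related letters CACGTT stood in 3 genes (Per2, Cry2 and Nr1d1) and in 4.07% of all windows. Per2 also held the D-box TTANGTAA, the kind of site that the DBP protein binds, which occurred in 2.04% of all windows. The cyclic AMP response element TGACGTCA was in none of the 9 genes and in 1.59% of all windows. The windows of Clock, Per1, Per3, Nr1d2 and Dbp held none of these letters. A match describes the letters only, and sites farther from the start were not searched.

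The libraries held 21466776 to 31189549 estimated counts each, and the clock genes took between 16 and 1358 of them in a library, so all 10 were measured in every animal and all 10 passed the filter on low counts. Values are given as normalized counts, that is, counts divided by a DESeq2 size factor, and since no gene lengths were used, levels are compared only within a gene. Markers of T cells, B cells, myeloid cells, erythroid cells and platelets were found in every library. The summed normalized counts of 4 liver markers were 389600 in control 2, against a median of 37.24. Those of 4 thymus markers were 5770 in control 12, against a median of 33.4, and those of 4 heart markers 365.8 in control 10, against a median of 12.53. The sum of 4 fat markers was 5576 in control 12 and 2448 in control 2, against a median of 64.29. All 4 fat markers were highest in control 12, whereas Car3 alone gave 2419 of the sum in control 2. The file names carry 6 codes of unstated meaning (A for controls 1 to 3, B for 4, 5, 7, 8 and 10, C for 6 and 9, D for 11 to 14, E for 15 and F for 16), which were treated as possible technical batches. The study's methods say that the experiment was repeated on separate dates, but the labels tie no library to a date, so differences between dates cannot be told apart from those between animals or codes.

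The activator Arntl (ENSRNOG00000014448) averaged 190.2 ± 45.4 normalized counts (SD, n = 16). Its lowest level was 97.25 in control 8, the median 192.9 and the highest level 314.8 in control 12. Apart from these and control 7 (129.9), the other 13 libraries lay close together, between 165.9 and 218.0. Its partner Clock (ENSRNOG00000002175) averaged 48.31 ± 15.4, with 29.72 in control 5, a median of 45.06 and 78.38 in control 4. Controls 6 and 10 followed at 70.68 and 68.5, and controls 1, 2, 15 and 16 were nearly as low as control 5.

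The Per genes encode the period proteins of the repressor complex, and the highest animal exceeded the lowest by 3.69-fold (Per3) to 4.44-fold (Per1). Per1 (ENSRNOG00000007387) averaged 323.2 ± 122 normalized counts (SD, n = 16), with a lowest level of 119.3 in control 8, a median of 310.1 and a highest level of 529.6 in control 15. Per2 (ENSRNOG00000020254) averaged 612.0 ± 241, and its order of animals was another one: it was lowest in control 12 at 282.4 and highest in control 8 at 1066, around a median of 568.7. Control 1 was next to control 8 at 1004. Per3 (ENSRNOG00000018413) averaged 55.8 ± 18.4, from 28.53 in control 8 through a median of 54.45 to 105.2 in control 4, which stood well above the next library, control 2 at 70.7.

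The cryptochrome genes encode the partners of the PER proteins. Cry1 (ENSRNOG00000006622) averaged 187.6 ± 40.9 normalized counts (SD, n = 16) and had the narrowest range of the 10 genes, 2.17-fold, from 128.4 in control 8 through a median of 184.5 to 279.2 in control 6. Cry2 (ENSRNOG00000007478) averaged 645.9 ± 207, from 379.9 in control 8 through a median of 569.9 to 1194 in control 4. Control 3 had 931.4 and control 16 only 397.7.

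Of the nuclear receptors that repress Arntl, Nr1d1 (ENSRNOG00000009329, also called REV-ERB alpha) averaged 49.58 ± 19.6 normalized counts (SD, n = 16), from 20.75 in control 8 through a median of 45.76 to 93.97 in control 2. Controls 7 and 5 were also low, at 22.48 and 27.24, and the range of 4.53-fold was the widest of the 10 genes. Nr1d2 (ENSRNOG00000046912) averaged 154.9 ± 45.9, from 77.8 in control 8 through a median of 141.9 to 253.8 in control 10. The output gene Dbp (ENSRNOG00000021027), a transcription factor that binds D-boxes, averaged 219.8 ± 59.0, from 157.6 in control 11 through a median of 207.5 to 367.8 in control 2. Controls 12 and 16 followed at 301.6 and 288.9, and controls 9 and 14 were nearly as low as control 11.

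**Figure D1:**
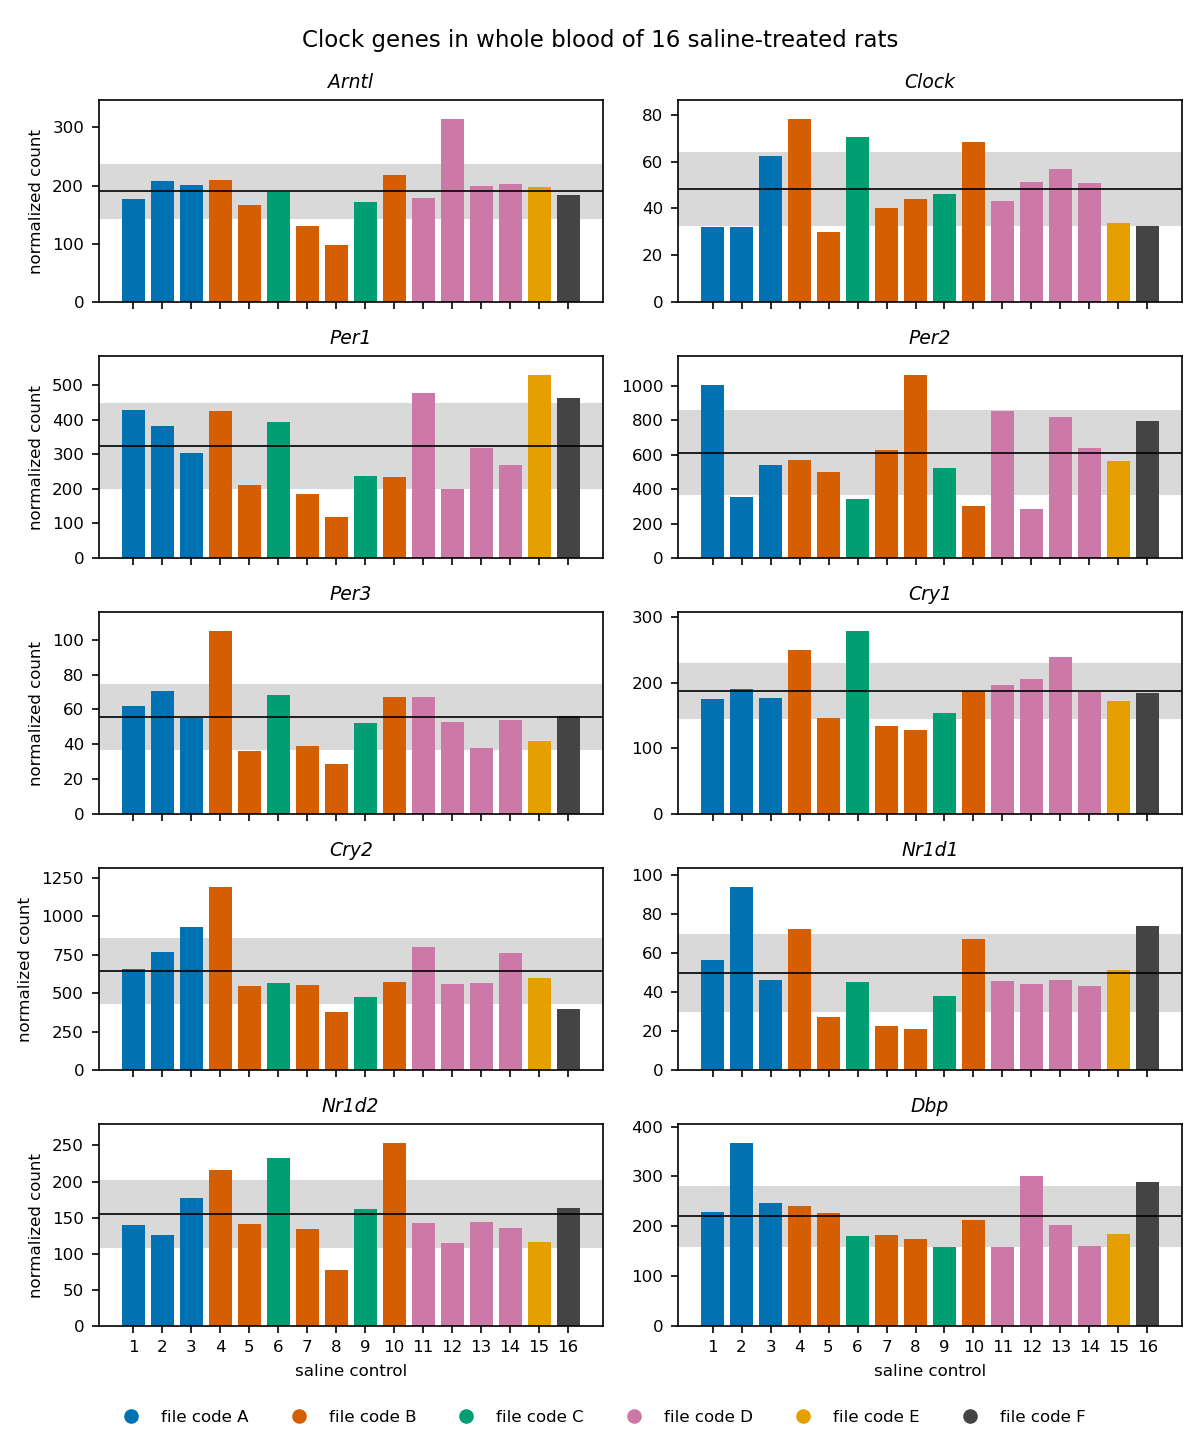
Normalized counts of the 10 clock genes (vertical axes, from 0) in each of the 16 saline controls (horizontal axis), with bars coloured by file code, the mean as a line and 1 SD on either side as a grey band. Control 8 is the lowest bar in 7 of the 10 panels and the highest for Per2, and control 4 is the highest for Clock, Per3 and Cry2.

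A few animals set most of the extremes. Control 8 was the lowest library for 7 of the 10 genes (Arntl, Per1, Per3, Cry1, Cry2, Nr1d1 and Nr1d2) and the highest for Per2. The same library had the highest summed myeloid markers, 1076000 normalized counts against a median of 206800. S100a9 (601900) and S100a8 (382300) made up most of that sum. Those 2 genes, Ccr1, Csf3r and Camp were highest in control 8, but Cd14, Cd68 and Itgax were highest in controls 15, 11 and 16. Control 8 also had the lowest summed T cell and B cell markers, 4590 and 3873 against medians of 7134 and 7031. In whole blood, fewer cells of a type and less RNA per cell cannot be told apart. Control 4 lay above the median for all 10 genes, whereas controls 5, 7 and 8 each lay below it for 9 of the 10. Control 2, the library with the highest liver markers, was the highest for Nr1d1 and Dbp, and control 12, with the highest thymus and fat markers, was the highest for Arntl and the lowest for Per2. Liver markers were also above most libraries in the low controls 8, 7 and 5, at 16830, 3950 and 1955 normalized counts. The part of these transcripts in the clock gene levels was tested only by leaving out libraries.

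The clock genes were of middling variability. Their coefficient of variation, the SD as a percent of the mean, had a median of 31.9% and ran from 21.8% for Cry1 to 39.5% for Nr1d1, while the 10920 genes that passed the filter had a median of 26.5%. Counting error alone would give between 4.21% (Cry2) and 15.8% (Nr1d1). Compared with genes whose mean was within 2-fold of their own, 6 of the 10 were above the median. Per2 exceeded 83.3% of such genes and Per1 82.1%, Cry2 exceeded 73.8%, and Cry1 and Clock exceeded 38.7% and 40.7%. The spread of Arntl, the activator that Nr1d1 represses, was that of an average gene of its level (47.7%).

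The clock genes other than Per2 mostly varied in the same direction among animals. For all 45 pairs, Pearson's r was computed over the 16 libraries on log2(normalized count + 1) with a 2-sided permutation test of 100000 resamples. The correlation was positive in 35 pairs and negative in 10, with a median of 0.409, against −0.014 for all pairs of the 10920 genes. Leaving out Per2, 34 of 36 pairs were positive (median 0.443), and with Per2 8 of 9 were negative (median −0.327). An r beyond 0.497 corresponds to p under 0.05 for 16 libraries, and 15 of the 45 pairs lay above it and 1 lay below −0.497. Among all pairs of the 10920 genes, 11.3% lay above and 9.63% below, and among pairs of genes in the range of means of the clock genes 11.7% and 8.83%. Pairs that share a gene are not independent, and the 45 permutation p-values are unadjusted.

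**Figure D2:**
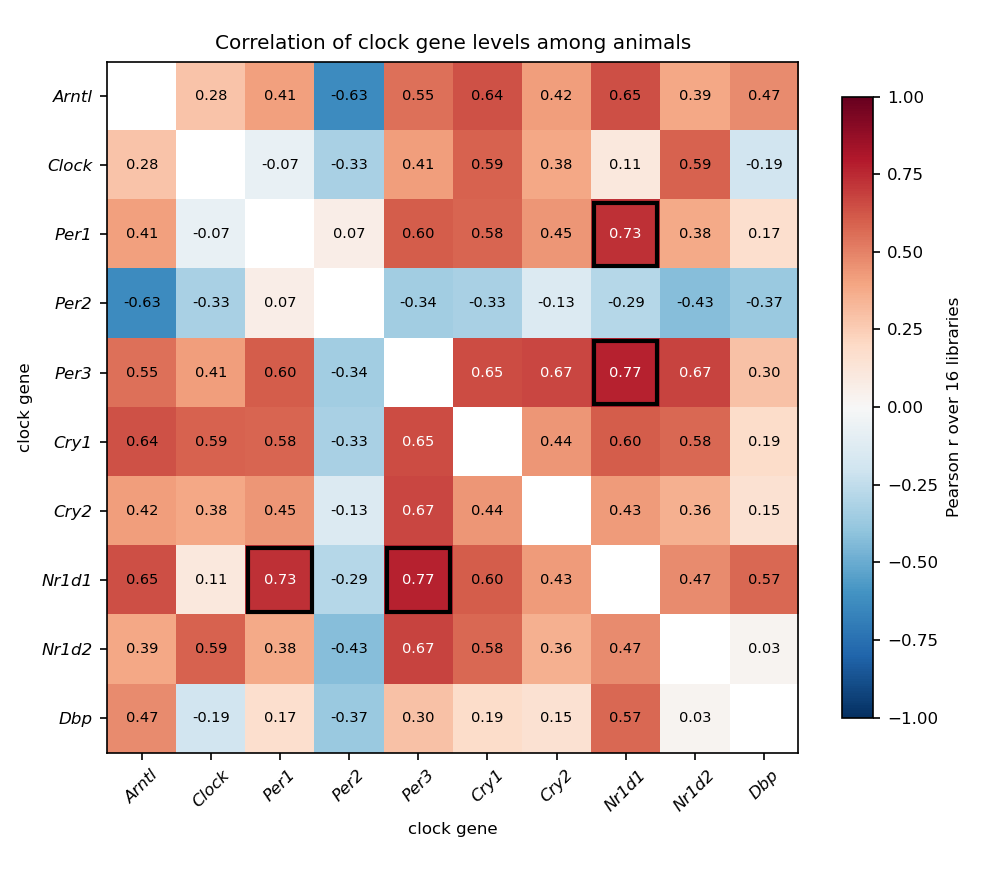
Pearson r over 16 libraries for each pair of clock genes, from −1 (blue) to 1 (red), with the genes on both axes and black frames around pairs called in both edgeR fits. The row of Per2 is blue except for Per1, and the framed pairs are Per1 with Nr1d1 and Per3 with Nr1d1.

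Arntl and Clock did not separate from the Per, Nr1d and Dbp genes. Arntl or Clock paired with the Per, Nr1d and Dbp genes gave 12 pairs, of which 4 were negative, with a median r of 0.399. The 15 pairs among the Per, Nr1d and Dbp genes had a median of 0.296, and 11 of them were positive. Arntl and its repressor Nr1d1 were positively correlated (r = 0.646, permutation p = 0.0074, Spearman rho = 0.576, p = 0.022). In both genes, controls 7 and 8 were the lowest libraries. Without controls 8 and 12, the libraries farthest from the median of Arntl, r was 0.769 (p = 0.0010). Within file codes it was 0.710 (p = 0.036, 14 libraries in codes with at least 2). It fell to 0.474 (p = 0.073) without control 8 alone. For residuals of a fit on the mean log2 levels of T cell and myeloid markers it was 0.463 (p = 0.072). Arntl and Per2 were the 1 pair below the limit (r = −0.630, permutation p = 0.0063, rho = −0.526, p = 0.039). That relation rested on controls 8 and 12, without which r was −0.309 (p = 0.29), although it was −0.835 (p = 0.00040) within file codes. Neither pair was called by edgeR over the whole table, where the larger of the adjusted p-values was 0.074 for each. The DESeq2 Wald test called both (adjusted p = 0.034 for Arntl with Per2 and 0.046 for Arntl with Nr1d1), and edgeR called Arntl with Nr1d1 without controls 2 and 12 (adjusted p = 0.023). With counts divided by the library total instead, the correlation of Arntl and Per2 was slightly positive (r = 0.080).

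To set the clock genes against all others, the level of each clock gene was used in turn as the covariate of an edgeR quasi-likelihood fit of every other gene, with Benjamini-Hochberg adjustment over 10919 genes. A slope is the change in log2 count per unit of log2 level of the covariate. A pair was called when the adjusted p was under 0.05 with each gene of it as the covariate, which 2 of the 45 pairs reached, and both contained Nr1d1. Nr1d1 rose with Per3 (slope 0.99, SE 0.24, adjusted p = 0.017), as did Per3 with Nr1d1 (slope 0.64, SE 0.15, adjusted p = 0.017). The correlation of that pair was 0.770 (permutation p = 0.00042, rho = 0.691, p = 0.0039), 0.673 (p = 0.0069) without controls 4 and 8 and 0.855 (p = 0.0019) within file codes. Nr1d1 also rose with Per1 (slope 0.73, SE 0.20, adjusted p = 0.033), and Per1 with Nr1d1 (slope 0.78, SE 0.20, adjusted p = 0.020). Here r was 0.730 (permutation p = 0.0014, rho = 0.682, p = 0.0047), 0.659 (p = 0.0096) without controls 8 and 15 and 0.664 (p = 0.0043) within file codes. Control 8 was lowest for all 3 of these genes, and controls 5 and 7 were low as well.

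**Figure D3:**
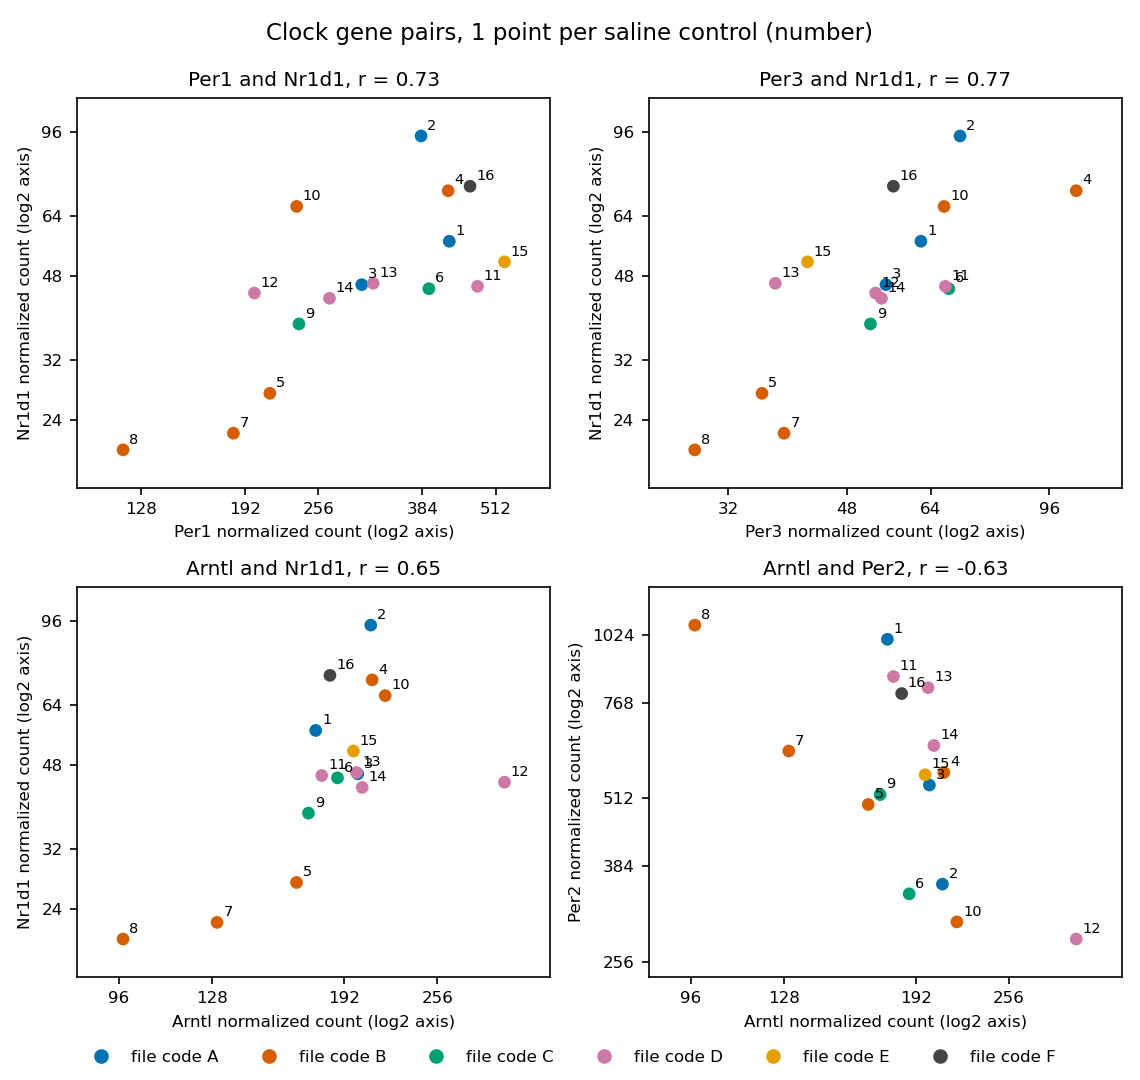
Normalized counts of clock gene pairs on log2 axes, with 1 numbered point for each saline control, coloured by file code. Controls 5, 7 and 8 lie at the low end of Per1, Per3 and Nr1d1, and in the panel of Arntl and Per2 controls 8 and 12 are the end points.

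Many other genes moved with a clock gene as well, and each count is given beside their share. With Nr1d1 as the covariate, 2 of the 9 other clock genes were called (Per1 and Per3), against 14.9% of all genes. With Per3 they were 3 of 9 (Cry2, Nr1d1 and Nr1d2, all rising), against 15.7%, with Per1 1 of 9 (Nr1d1), against 9.16%, and with Cry1 1 of 9 (Per3), against 15.7%. None of the 9 was called by edgeR with Arntl (background 7.02%), Clock (0.321%), Per2 (8.87%), Cry2 (0%), Nr1d2 (8.71%) or Dbp (11.9%) as the covariate. At an unadjusted p under 0.05 the edgeR counts in these fits were 5, 2, 1, 1, 3 and 1, limma-voom called 0 in each, and the DESeq2 Wald test called 2, 0, 1, 0, 1 and 1. In the fit of Cry2, 2000 genes had an unadjusted p under 0.05, none was called by edgeR or limma-voom, and DESeq2 called 120.

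The calls of these pairs, more than their correlations, changed with the model and the animals included. Per3 with Nr1d1 was called in 14 of the 16 fits that left out 1 library. It lost the call without control 4 or control 8 (adjusted p up to 0.12). Of all genes, 0% were called with Per3 without control 4, and 0% with Per3 or Nr1d1 without control 8. Per1 with Nr1d1 was called in 10 of 16 and lost the call without control 1, 4, 5, 7, 8 or 16 (adjusted p up to 0.17). With the T cell and myeloid levels as further covariates, no pair was called in both edgeR fits. The adjusted p-values were 0.29 for Per3 with Nr1d1 and 0.21 for Per1 with Nr1d1. That model called 0% of all genes with Per3 or Nr1d1 as the covariate, so neither pair could be called. Over the 10 clock genes its median share was 0.01%. An unadjusted p under 0.05 in both fits was found for 8 of the 45 pairs. For residuals of a fit on these levels, r was 0.731 (p = 0.0012) for Per1 with Nr1d1 and 0.592 (p = 0.016) for Per3 with Nr1d1. For the levels without that fit, r with 1 library left out was at least 0.619 for Per1 with Nr1d1 and 0.689 for Per3 with Nr1d1. With the file code in the model the adjusted p-values were 0.080 for Per3 with Nr1d1 and 0.11 for Per1 with Nr1d1. The 2 pairs called there were others, Arntl with Per2 and Per1 with Per3. In that model 0 of 10919 genes were called with Nr1d1 as the covariate, so no pair with Nr1d1 could be called. The share of all genes was 20.1% with Arntl, 16.4% with Per2, 7.14% with Per1 and 3.15% with Per3. Counts scaled by the library total gave 32 called pairs, all those without Per2 but 4, together with a median of 41.8% of all genes called per clock gene instead of 9.02%. Relative to the total count, the size factor varied 1.96-fold among libraries and was lowest in control 10 and highest in control 3.

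**Figure D4:**
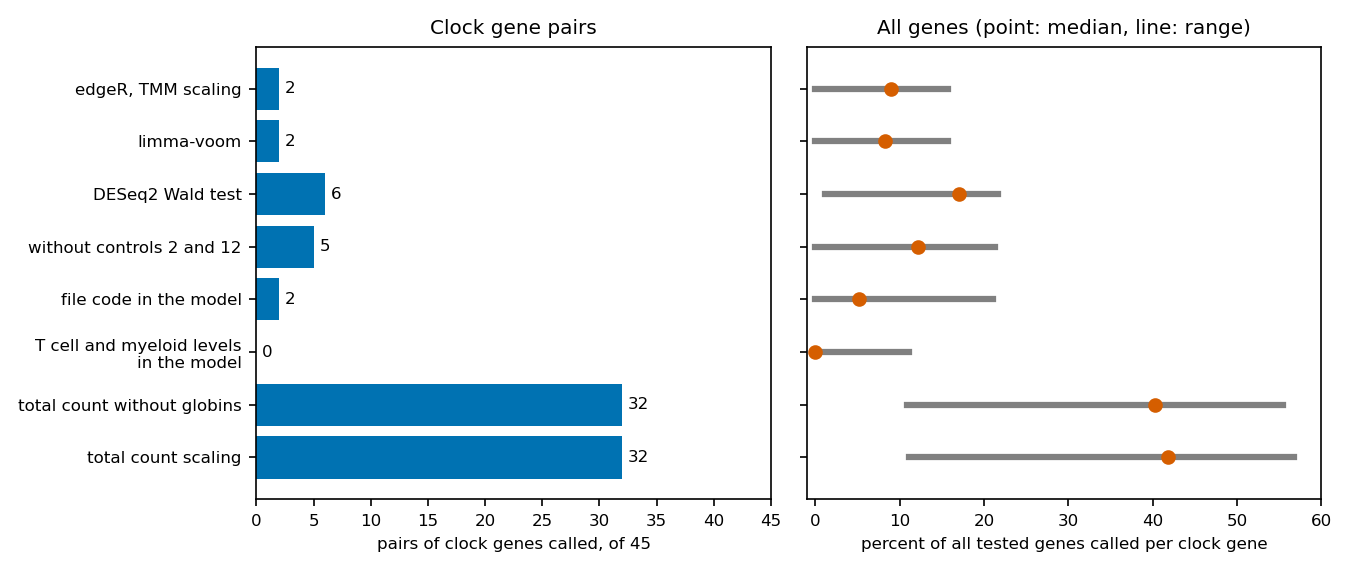
Number of clock gene pairs called in both fits out of 45 (left, bars from 0) and the percent of all tested genes called with a clock gene as the covariate (right, point for the median and line for the range over the 10 genes), for 8 ways of fitting. The pairs run from 0 with the T cell and myeloid levels in the model to 32 with total count scaling, where the share of all genes is also highest.

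Other pairs passed the permutation test without being called in both edgeR fits. Per3, besides Nr1d1 and Per1 (r = 0.603, p = 0.014), correlated with Nr1d2 (r = 0.674, p = 0.0046), Cry2 (r = 0.670, p = 0.0051), Cry1 (r = 0.654, p = 0.0062) and Arntl (r = 0.549, p = 0.028). Without controls 4 and 8 the first of these 4 relations fell to 0.420, the second to 0.308 and the third to 0.424, so they rested on those animals. The DESeq2 Wald test called Per3 with Nr1d2 (adjusted p = 0.025) and Per3 with Cry1 (adjusted p = 0.042), and edgeR with the file code in the model called Per1 with Per3 (adjusted p = 0.048). Cry1 correlated with Arntl (r = 0.640, p = 0.0079), and that value was 0.614 (p = 0.020) without controls 8 and 12. For residuals of a fit on the T cell and myeloid levels it was 0.676 (p = 0.0047). It was 0.510 (p = 0.052) without control 8 alone and 0.592 (p = 0.054) within file codes. Dbp had its highest r with Nr1d1 (r = 0.575, p = 0.020), which was 0.374 (p = 0.19) without controls 2 and 8. The paralogs did not stand out, with an r of 0.470 (p = 0.065) for Nr1d1 with Nr1d2, 0.442 (p = 0.087) for Cry1 with Cry2 and 0.066 (p = 0.81) for Per1 with Per2. Arntl and Clock, whose proteins work as a pair, had an r of 0.284 (p = 0.30).

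For every clock gene, many other genes had a more similar pattern than any fellow clock gene. Among 8207 genes with a mean of at least 100 normalized counts and at least 10 counts in every library, between 163 (for Per3) and 797 (for Cry1) had a higher r with a clock gene than its best clock gene partner had, and 3496 had one for Per2. The most similar gene to Arntl was Cand1, a regulator of cullin ubiquitin ligases (r = 0.940), followed by Myef2 (0.919) and Mcm6, a subunit of the replicative helicase (0.918). Clock was nearest to Trim33 (0.897), Mdm4, an inhibitor of p53, and Smg1, a kinase of nonsense-mediated decay (0.884 each). Per1 was nearest to Cherp (0.934), Gltscr1 (0.921) and the AMP deaminase Ampd2 (0.914). Per2 was nearest to Pbxip1 (0.898), Wbp1l and Sirpa, an inhibitory receptor of myeloid cells (0.871 each). Per3 was nearest to Kidins220 (0.878), Ttc13 (0.867) and the importin Ipo9 (0.865). Cry1 was nearest to Gemin5 (0.963), Polr1a, the largest subunit of RNA polymerase I (0.945), and Pwp2 (0.934), and Cry2 to Utp20 (0.821), the reader of methylated adenosine Ythdf2 (0.818) and Cep250 (0.817). Nr1d1 was nearest to Reep4 (0.914), Nsf (0.901) and Pp3111 (0.899), Nr1d2 to the integrin subunit Itga4 (0.912), Pdpr (0.887) and Man1a1 (0.885), and Dbp to Ndufa10 (0.848), Mettl3 (0.847) and Nsfl1c (0.833). These values describe the 16 libraries and were picked as the highest of 8207.

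Of 25 further genes known to belong to or be driven by the clock, 20 were listed and 15 passed the filter. Npas2, Rora, Hlf, Bhlhe41 and Fbxl21 were listed at a mean of at most 5.535 normalized counts, and Arntl2, Rorb, Ciart and Tipin were not among the genes used. Tef, a D-box factor related to Dbp, rose with Per1 (r = 0.742, adjusted p = 0.031), Nr1d1 (0.750, 0.024), Cry1 (0.763, 0.017) and Arntl (0.717, 0.049). Its levels ran from 93.36 to 220.1 with a mean of 177.3 ± 35.5 (SD, n = 16). Timeless, a replication fork protein related to the fly clock gene, rose with Nr1d1 (r = 0.788, adjusted p = 0.020), Cry1 (0.727, 0.034), Arntl (0.757, 0.043) and Per3 (0.690, 0.046). Nfil3, the repressor that competes with DBP for D-boxes, averaged 814.0 ± 485 (SD, n = 16). It rose with Per2 (r = 0.705, adjusted p = 0.032) and fell with Dbp (−0.597, 0.028), Nr1d2 (−0.671, 0.031) and Per3 (−0.615, 0.047). Csnk1e, the kinase that phosphorylates PER proteins, rose with Per2 (r = 0.855, adjusted p = 0.018), as did Klf10 (0.760, 0.026).

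By clock gene, Per2 had 3 of these 15 genes rising and none falling (8.87% of all genes were called), with a median r of 0.264 against −0.086 over all genes, and Dbp had none rising and 3 falling (Nfil3, Fbxw11 and Usp2, against 11.9%), with a median r of −0.370 against 0.042. Arntl, Cry1 and Nr1d1 each had 2 of the 15 rising, Tef and Timeless, and none falling, against 7.02%, 15.7% and 14.9% of all genes. The median r of the 15 genes with them was nevertheless negative (−0.363, −0.204 and −0.298, against 0.017, −0.023 and −0.010 over all genes). Timeless rose and Nfil3 fell with Per3, Per1 had Tef rising, Nr1d2 had Nfil3 falling, and Clock and Cry2 had none called by edgeR or limma-voom (1 each at an unadjusted p under 0.05, and 0 and 1 by DESeq2). Of the same 15 genes, 8 were called with the myeloid level, beside 28.7% of all genes.

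Because Per1 is also a glucocorticoid target, 8 genes induced by that hormone were examined with it, of which 7 passed the filter. Klf9, a transcription factor induced by both glucocorticoids and the clock, rose with Per1 and had a higher r with it than any clock gene had (r = 0.872, slope 0.75, SE 0.12, adjusted p = 0.0050). It ranged from 70.02 to 257.0 normalized counts with a mean of 159.9 ± 52.4 (SD, n = 16). Of the 8207 genes compared above, 407 had a higher r with Per1 than any clock gene had. Fkbp5, a co-chaperone of the glucocorticoid receptor, rose with Per1 as well (r = 0.600, slope 0.62, SE 0.18, adjusted p = 0.043). Together 2 of 7 rose, against 9.16% of all genes called, and the median r of the 7 was 0.210, against −0.028 over all genes. DESeq2 called 3 of the 7, Ddit4 besides Klf9 and Fkbp5, against 15.0% of all genes. The other 5 were not called with Per1 by edgeR, with an r of 0.613 for Ddit4, 0.210 for Tsc22d3, 0.161 for Sgk1, −0.071 for Dusp1 and −0.302 for Cdkn1a. Klf9 also rose with Per3 (r = 0.776, adjusted p = 0.013), Cry1 (0.667, 0.032) and Nr1d1 (0.676, 0.038). Dusp1, a phosphatase gene of the early stress response, rose with Per2 (r = 0.804, adjusted p = 0.021) and fell with Nr1d2 (−0.700, 0.031).

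Per2 went up and 4 other clock genes went down with the myeloid markers. The level of a cell type was the mean log2 level of its fixed markers (8 for myeloid cells, 5 each for T cells, B cells and erythroid cells), and 40 relations with the clock genes were computed. With the myeloid level as the edgeR covariate, 5 of the 10 clock genes were called, against 28.7% of all genes. Per2 rose (slope 0.34, SE 0.12, adjusted p = 0.035, r = 0.604, permutation p = 0.015), with control 8 highest on both measures. Dbp fell by 0.25 per unit of myeloid level (SE 0.07, adjusted p = 0.014, r = −0.651), Nr1d2 by 0.28 (SE 0.08, adjusted p = 0.018, r = −0.662), Per3 by 0.31 (SE 0.09, adjusted p = 0.018, r = −0.695) and Nr1d1 by 0.34 (SE 0.12, adjusted p = 0.038, r = −0.607). When controls 6 and 8, at the ends of the myeloid level, were left out, r was 0.439 (p = 0.12) for Per2, −0.442 (p = 0.11) for Nr1d2, −0.568 (p = 0.034) for Nr1d1, −0.586 (p = 0.026) for Per3 and −0.810 (p = 0.00057) for Dbp, so the relations of Per2 and Nr1d2 rested on those libraries. Without control 8 alone the edgeR fit called 1 of the 10, Dbp, against 18.2% of all genes. Dbp was called in all 16 fits that left out 1 library (adjusted p up to 0.049). Within file codes r was 0.728 (p = 0.0058) for Per2 and −0.690 (p = 0.0016) for Dbp. With the file code in the model 4 of the 10 were called, against 27.8% of all genes, Per2 rising and Dbp, Arntl and Cry1 falling.

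**Figure D5:**
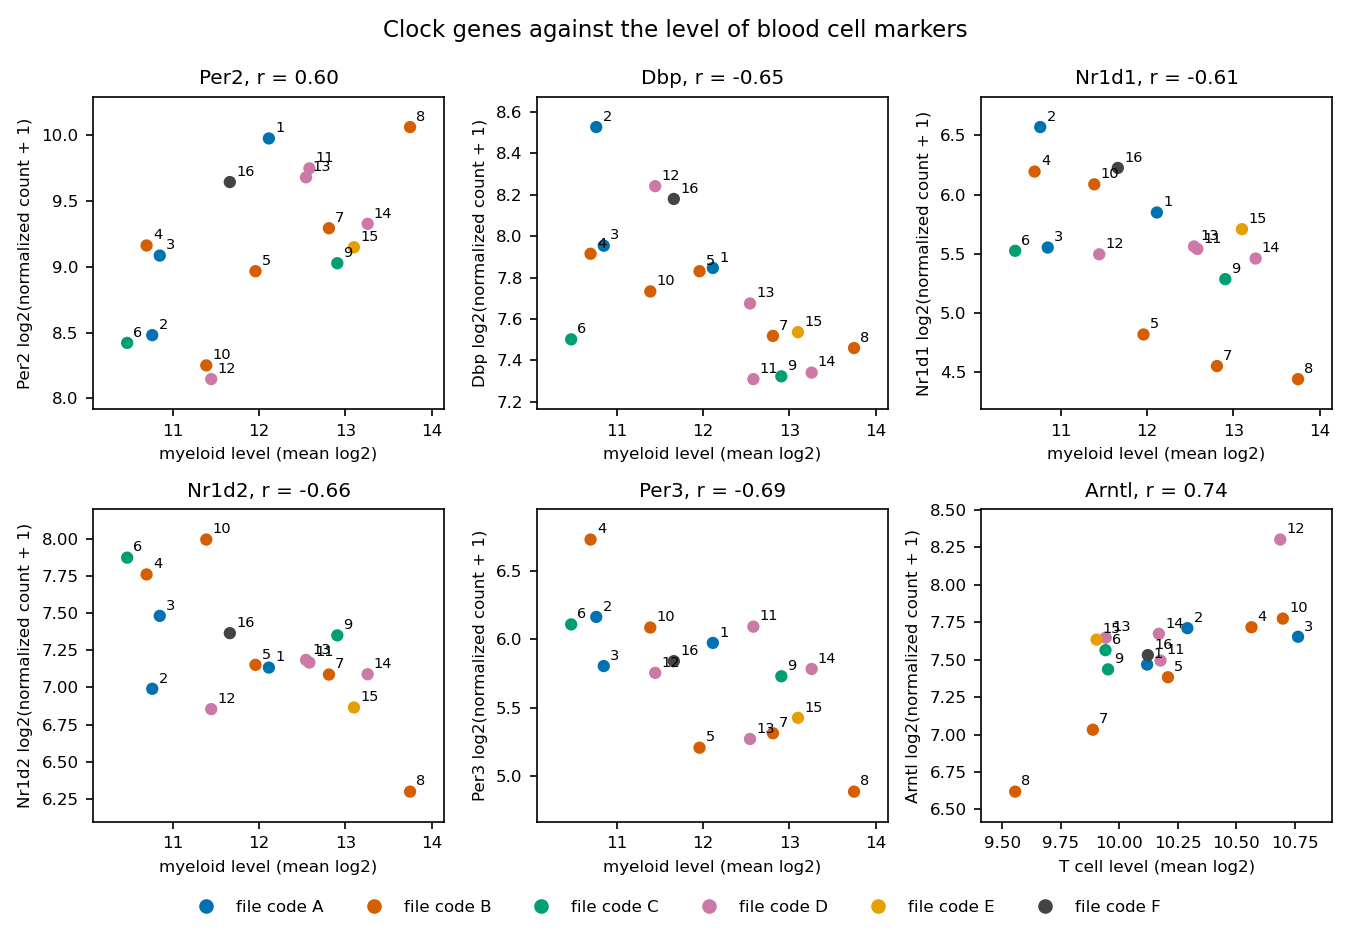
Log2(normalized count + 1) of clock genes (vertical axes) against the mean log2 level of myeloid or T cell markers (horizontal axes), with 1 numbered point for each saline control, coloured by file code. Per2 rises and Dbp, Nr1d1, Nr1d2 and Per3 fall with the myeloid level, and control 8 lies at one end of the marker axis in every panel.

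With the T cell level, 2 of the 10 clock genes were called, against 17% of all genes, and both rose. Arntl had a slope of 0.76 (SE 0.20, adjusted p = 0.021, r = 0.741, permutation p = 0.00066), an r of 0.698 (p = 0.0022) without controls 3 and 8 and of 0.904 (p = 0.0012) within file codes. Its call was lost without control 8 (adjusted p = 0.11), without control 12, or without controls 2 and 12 (adjusted p = 0.095). Control 12, highest for Arntl and for the thymus markers, also had the highest summed T cell markers (10840 normalized counts). On the T cell level used in the fit it had 10.688, below control 3 (10.764) and control 10 (10.699). The part of thymus transcripts in the relation of Arntl with the T cell level was not tested apart from leaving out control 12. Cry2 had a slope of 0.82 (SE 0.27, adjusted p = 0.049, r = 0.583, permutation p = 0.018) and was called in 6 of the 16 fits that left out 1 library. Without controls 2 and 12 the T cell calls were 1 (Cry2, against 9.44% of all genes) and the myeloid calls 2 (Nr1d2 and Per3, against 25.6%). The T cell and myeloid levels themselves were negatively correlated (r = −0.672, p = 0.0047), as were the B cell and myeloid levels (r = −0.710, p = 0.0016), so the relations with each are not separate findings.

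None of the 10 clock genes was called by edgeR with the B cell level (9.58% of all genes) or the erythroid level (7.48% of all genes). With the B cell level 6 of the 10 had an unadjusted p under 0.05, as did 3149 of 10915 genes. With the erythroid level 0 of the 10 and 1587 of 10915 genes did. DESeq2 called 0 of the 10 with either level, against 15.9% and 8.82% of all genes. After the T cell and myeloid levels were fitted and removed from each clock gene, 6 of the 45 pairs kept an r above 0.497 and 2 lay below −0.497, with a median of 0.191, and among all gene pairs treated the same way 9.7% and 8.45% did. The negative pairs were Nr1d2 with Dbp (r = −0.746, p = 0.00093) and Clock with Dbp (r = −0.678, p = 0.0039), which had been at 0.025 and −0.191 before. Per1 with Nr1d1 was the highest of the positive values (r = 0.731, p = 0.0012) and Arntl with Cry1 came next.

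The clock genes did not differ detectably among file codes. In an edgeR F-test over the 12 libraries of codes A, B and D, 0 of the 10 were called, against 1.78% of 12952 genes. The adjusted p-values ran from 0.65 (Dbp) to 0.99 (Per2), none of the 10 had an unadjusted p under 0.05, and the DESeq2 likelihood ratio test also called 0. Dbp, the nearest to a difference, averaged 281.3 ± 75.5 normalized counts in code A (SD, n = 3), 207.2 ± 28.0 in code B (n = 5) and 205.9 ± 67.1 in code D (n = 4). Codes C, E and F held too few libraries to be compared.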

How the data were processed

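Whole blood RNA of 16 saline-treated rats, depleted of globin mRNA and selected for polyadenylated RNA with a stranded kit, was sequenced in 16 libraries, each with its own animal ID in the labels. Per the labels and methods, the authors aligned reads with Bowtie 0.12.9 to an Ensembl rat transcriptome (rn5) and deposited expected counts per gene from RSEM 1.2.0 (base calls by CASAVA 1.8.2). The deposited expected counts are not normalized, and RSEM divides reads among transcripts they fit. They were rounded here. The study replaced outlying values before its own analysis, a step not applied here. Genes not listed for every library (18031 were) were left out, and 10 globin entries took 2.97% to 15.5% of the counts.

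edgeR 4.0.16 (TMM scaling, filterByExpr over all libraries as 1 group, quasi-likelihood F-test, Benjamini-Hochberg threshold 0.05) ran in R 4.3.3 and was tested on simulated counts. Covariates were log2(DESeq2-normalized count + 1). Pearson and Spearman tests used 100000 two-sided permutations. Alternatives were limma 3.58.1, DESeq2 1.42.0, other scalings, filters and covariates, and left-out libraries. Leaving out single libraries from the fits on T cell and myeloid levels was added after seeing the data. No libraries agreed within sampling noise (lowest chi-square per degree of freedom 48.0, controls 11 and 13). The clock genes and gene lists were chosen with earlier results of these data known. Named besides them are genes of those lists and, for each clock gene, the 3 genes with the highest r. Correlations and plots were made in Python 3.11.15 (pandas 2.3.3, scipy 1.17.1, numpy 2.4.6, matplotlib 3.10.9). Some genes of the lists are not reported here.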

Additional observations from a re-analysis of the deposited data

How the results depend on the processing

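The results depended most on the scaling and on control 8. The count of clock gene pairs called in both fits, 2, went to 32 with counts scaled by the library total, with or without globin genes, to 6 with the DESeq2 Wald test, to 5 without controls 2 and 12 and to 0 with the T cell and myeloid levels in the model, and ranged from 0 to 4 when 1 library was left out (0 without control 4 or 8, 1 without control 1, 5, 7 or 16, 4 without control 12). It stayed at 2 with DESeq2 size factors, without a filter on low counts, with limma-voom, with a pseudocount of 10 and with summed entries. It was also 2 with the file code in the model, where the pairs were others. Over the 10 clock genes, the median share of all genes called was 9.02% in the main fit. That share was 41.8% with total scaling, 17.05% with the DESeq2 Wald test and 12.15% without controls 2 and 12. It was 5.14% with the file code and 0.01% with the T cell and myeloid levels in the model. The 16 pairs with a permutation p under 0.05 became 32 with either total scaling, 8 for residuals on the T cell and myeloid levels and 7 without the 2 libraries farthest from the median, and 9 to 20 when 1 library was left out (9 without control 8). The correlation of Arntl with Per2 changed sign under total scaling, to 0.080, or 0.062 without globin genes. The 2 clock genes called with the T cell level (17% of all genes) became 9 with total scaling (48.3%) and 4 with DESeq2 (23.4%). They became 1 without a filter (8.59%) and 1 without controls 2 and 12 (9.44%). When 1 library was left out they were 0 to 5, with 0 without control 8 (0.145%) and 5 without control 6 (24.2%). The 5 called with the myeloid level (28.7% of all genes) became 0 with total scaling (11.8%) and 3 without a filter (16.8%). Without controls 2 and 12 they became 2 (25.6%). When 1 library was left out they were 1 to 6, with 1 without control 8 (18.2%) and 3 without control 4 (26.1%) or 6 (28.7%). With the B cell level, total scaling gave 9 instead of 0, and 49.4% of all genes instead of 9.58%. The median coefficient of variation of 31.9% was 41.2% with total scaling. The causes were not tested. No alternative brought a call among file codes. Nr1d1 (16 to 105 counts per library) and Clock (24 to 91) rest on the fewest reads, and what this depth could detect was not tested. No paired analysis was possible because the labels give 1 group.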
